A study of Mus musculus with 23 samples.

Results

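The enzymes that make sterols and fatty acids, with a few of their regulators, were followed across 8 subclones of Lewis lung carcinoma (LLC), a mouse lung tumour cell line that is used as a transplantable tumour. The list held 32 genes, of which 31 were measured among 18193 genes tested, and Acat2 was not analysed here. It held the enzymes of the cholesterol arm (17 measured of 18 listed), the enzymes of the fatty acid arm (10 of 10) and 4 genes that regulate the pathway or carry sterol. Each gene was read by its probe set with the highest mean over all 23 arrays, as log2(intensity + 16). Levels and differences below are on that scale, on which the change of a dim gene comes out too small.

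There were 3 arrays for each of subclones 2, 3, 18, 19, 23, 24 and 28 and 2 for subclone 6, which the labels call biological replicates without saying how the cultures were separated. All 8 were raised from the parental line by limiting dilution, so each stands for a clone, and the labels name no parental sample and no genetic change. Every subclone was kept in DMEM with 10% serum, penicillin and streptomycin and then held for 24 h in the serum-free FreeStyle medium, so the arrays hold no serum-fed sample. Each subclone was set against the average of the remaining 7 subclone means. The 8 comparisons have arrays in common and so are not independent.

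Cells make cholesterol from acetyl-CoA through mevalonate, farnesyl diphosphate, squalene and lanosterol. Fatty acids start from the same acetyl-CoA, which is turned into malonyl-CoA, built into palmitate, and then elongated and desaturated. Both arms are driven by the SREBP transcription factors, which Scap escorts out of the endoplasmic reticulum when sterol is scarce and which Insig proteins hold back when sterol is plentiful. Serum supplies lipoprotein cholesterol, and cultured cells rely more on synthesis when it is withdrawn.

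The arrays were alike in overall brightness, with medians of 40.83 to 45.74 intensity units, and no pair of arrays held identical values. The ratio of 3' to 5' probe sets, a measure of RNA integrity, was 0.903 to 0.967 for Gapdh and 1.35 to 1.53 for actin. Vim (13.63 to 13.84) and Fn1, which mark mesenchymal cells, were high on all arrays, Krt18 of simple epithelia lay at 10.80 to 12.01, and Cdh1 was near the floor of the scale (4.11 to 4.81). Markers of hepatocytes, cells with a high rate of lipid synthesis, were under an intensity of 40 on all arrays for 4 of 4 genes, with a summed intensity of 44.2 to 86.7. The same held for 3 of 4 adipocyte markers, and the exception was Fabp4, which reached 9.31 in subclone 28. Of 5 leukocyte markers, Ptprc and Cd3e were under 40 on all arrays, while Csf1r lay at 6.90 to 7.49, Lyz2 reached 8.09 and Cd68 reached 8.98, with its highest mean in subclone 28. The summed intensity of the 5 was 252 to 799. Krt8 averaged 11.29 at its highest (subclone 3) and 5.70 at its lowest (subclone 18), with the same ends for Krt18. Other epithelial markers had other ends. Epcam was highest in subclone 18 (7.99) and lowest in subclone 19 (7.05). Krt19 was highest in subclone 6 (7.16) and lowest in subclone 19 (5.06). The part of these markers in the results was not tested. These were bulk RNA samples, in which fewer cells of a type and less RNA per cell cannot be told apart.

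The list varied more between subclones than most of all the genes tested. The list was chosen with earlier results of these data known, so this is a description. All genes include many dim ones, whose changes come out too small on this scale, whereas every member but Elovl7 was brighter than most genes. A comparison with expressed genes alone was not made for the F-test or the range, so the part of brightness in the excess was not tested. By limma's moderated F-test, 30 of 31 genes differed between the 8 subclones at a Benjamini-Hochberg adjusted p under 0.05, against 61.8% of all genes. With a range between the highest and the lowest subclone mean of at least 1 log2 unit in addition, 15 of 31 did, against 12.7% of all genes. The median range was 1.15 in the cholesterol arm, 0.86 in the fatty acid arm and 0.49 over all genes. The gene that did not pass was Mvd, mevalonate diphosphate decarboxylase, with an adjusted p of 0.467 by limma. The other probe set of Mvd ranged over 1.75, highest in subclone 3 and lowest in subclone 19, and correlated with the one used at r = 0.63 over the 8 subclone means, so the result for Mvd depended on the probe set.

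**Figure D1:**
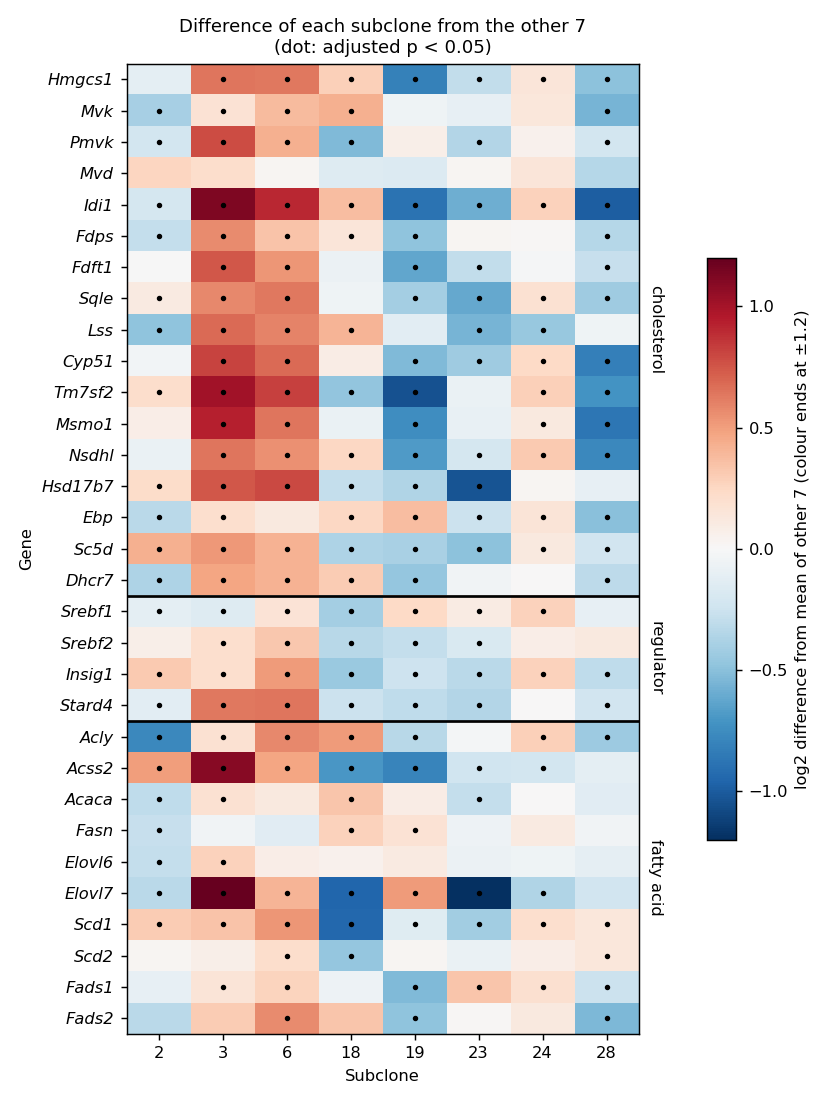
Log2 difference of each gene (rows, in 3 blocks: cholesterol arm, regulators and sterol transport, fatty acid arm) in each subclone (columns) from the mean of the other 7; red is higher, blue is lower, colours end at ±1.2 and dots mark an adjusted p under 0.05 by limma. The cholesterol block is red in subclones 3 and 6 and mostly blue in subclones 19, 23 and 28, whereas the fatty acid block is mixed within most subclones.

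The cholesterol arm stood high in subclones 3 and 6 and low in subclones 28, 19 and 23. In subclone 3, 16 of 17 genes were higher than in the other 7 and 0 lower, against 19.4% of all genes higher and 18.6% lower. In subclone 6, 15 were higher and 0 lower, against 13.8% and 10.1% of all genes. In subclone 28, 0 were higher and 14 lower, against 19.2% and 18.2% of all genes. In subclone 19, 1 was higher and 12 lower, against 24.2% and 17.7% of all genes, and the higher one was Ebp, the sterol isomerase. In subclone 23, 0 were higher and 11 lower, against 20.2% and 17.4% of all genes.

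The remaining 3 subclones were less uniform. Subclone 24 had 9 higher and 1 lower of 17, against 15.2% and 17.1% of all genes, and the lower one was Lss, lanosterol synthase. Subclone 18 had 8 higher and 4 lower, against 21.5% and 21.6%. Subclone 2 had 4 higher and 7 lower, against 15.4% and 20.5%. Expressed genes, the 9510 with a mean level of at least log2(100), were called more often. In subclone 3, 31.6% of them were higher and 30.3% lower, and in subclone 6 21.0% and 17.1%. The shares were 30.5% and 30.1% in subclone 28, 39.0% and 27.0% in subclone 19, and 34.7% and 26.8% in subclone 23. They were 25.8% and 26.7% in subclone 24, 34.1% and 34.0% in subclone 18, and 24.7% and 33.2% in subclone 2. In subclone 2 the arm (23.5% and 41.2%) lay near them. The median difference of the arm was 0.64 and 0.55 in subclones 3 and 6 and -0.43, -0.46 and -0.29 in subclones 28, 19 and 23. It lay between -0.08 and 0.13 in subclones 2, 18 and 24. With a difference of at least 0.5 in addition, 13 genes were higher in subclone 3 (3.19% of all genes), 10 higher in subclone 6 (2.37%), 7 lower in subclone 19 (3.15%), 6 lower in subclone 28 (2.58%) and 4 lower in subclone 23 (3.34%).

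Of the enzymes that lead to mevalonate and on to farnesyl diphosphate, Hmgcs1, Idi1 and Fdps had their highest means in subclone 3 and their lowest in subclone 19 or 28, and Mvk, Pmvk and Mvd did not share both ends. Hmgcs1, the cytosolic HMG-CoA synthase, read 11.00, 10.93 and 10.76 in subclone 19, against a lowest value of 11.11, a median of 11.72 and a highest of 12.22 over the 20 arrays of the other 7 subclones. Every array of subclone 19 was below all others, and the difference was -0.81 ± 0.043 (SE, 3 arrays, limma adjusted p = 3.55e-11). Subclones 3 and 6 were the highest for Hmgcs1, with means of 12.17 each, and did not differ from one another (adjusted p = 0.968, limma). Of the 5 probe sets of Hmgcs1, all were lowest in subclone 19.

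Idi1, which interconverts the isoprenoid building blocks, had the widest range of the cholesterol arm, 3.58-fold. It read 11.56, 11.53 and 11.49 in subclone 3, 11.36 and 11.32 in subclone 6, 10.83, 10.88 and 10.92 in subclone 18, and 10.82, 10.75 and 10.80 in subclone 24. It read 10.35, 10.26 and 10.50 in subclone 2, 10.10, 9.98 and 10.03 in subclone 23, 9.88, 9.66 and 9.79 in subclone 19, and 9.70, 9.65 and 9.72 in subclone 28. The 3 arrays of subclone 3 were above all others, and those of subclones 19 and 28 overlapped. In that order of means, the neighbours 3 and 6, 18 and 24, and 19 and 28 did not differ at an adjusted p under 0.05, and the other 4 neighbouring pairs did. Against the other 7, Idi1 was 1.12 ± 0.044 higher in subclone 3 (SE, limma adjusted p = 1.41e-12) and -0.98 ± 0.044 apart in subclone 28 (adjusted p = 4.53e-12).

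Mevalonate is phosphorylated by Mvk and then by Pmvk, and these enzymes departed from the common order in subclone 18. Mvk was at 7.48 to 7.50 there, against 6.45 to 7.47 on the other 20 arrays with a median of 7.08, and so lay above all of them. Pmvk was at 7.61 to 7.72 in subclone 18, against 7.72 to 8.97 elsewhere with a median of 8.12, and so lay below all of them. The differences were 0.42 ± 0.065 for Mvk (SE, limma adjusted p = 2.54e-05) and -0.53 ± 0.054 for Pmvk (adjusted p = 1.25e-07). The next subclone was close in both genes. Mvk did not differ between subclones 18 and 6 (gap 0.041, limma adjusted p = 0.799). Pmvk did not differ between subclones 23 and 18 (gap 0.16, adjusted p = 0.0877). Over all genes, 4.97% had every array of subclone 18 above every other array and 6.28% had every array below. Fdps, farnesyl diphosphate synthase, was highest in subclone 3 (11.35) and lowest in subclone 19 (10.43).

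From squalene to lanosterol, Fdft1 (squalene synthase) and Sqle (squalene epoxidase) kept subclones 3 and 6 on top and differed in which subclone was lowest. Fdft1 read 10.08, 10.04 and 10.11 in subclone 19, below the 10.29 to 11.36 of the other 20 arrays, with a difference of -0.62 ± 0.039 (SE, limma adjusted p = 2.88e-10). Sqle read 10.05, 10.13 and 10.07 in subclone 23, below the 10.20 to 11.20 of the others, with a difference of -0.61 ± 0.036 (adjusted p = 1.79e-10). Lss, which closes the sterol rings, had means of 7.52 (subclone 23), 7.59 (subclone 2) and 7.62 (subclone 24), against 8.60 for subclone 3 and 8.53 for subclone 6. Its second probe set, nearly as bright, was also highest in subclone 3 but lowest in subclone 28 (7.54, with 7.79 in subclone 23), so the low end of Lss depended on the probe set.

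Among the enzymes that trim lanosterol down to cholesterol, the lowest subclone was 28, 19 or 23, depending on the gene. Cyp51, the lanosterol demethylase, averaged 10.81 and 10.70 in subclones 3 and 6 and 9.39 in subclone 28. All 3 arrays of subclone 28 (9.31 to 9.44) were below the 9.57 to 10.86 of the other 20. Tm7sf2, a sterol reductase that acts after Cyp51, read 7.03, 7.03 and 6.99 in subclone 19, against a lowest value of 7.30, a median of 8.03 and a highest of 8.92 on the other 20 arrays. The groups did not overlap, and the difference was -1.05 ± 0.053 (SE, limma adjusted p = 1.76e-11). In subclone 3, Tm7sf2 was 1.01 ± 0.053 higher than in the other 7 (adjusted p = 5.47e-11). The means of subclones 3 and 19, 8.82 and 7.02, were 3.48-fold apart.

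Msmo1, the methylsterol monooxygenase, read 11.69, 11.60 and 11.68 in subclone 3, against 10.07, 10.08 and 10.10 in subclone 28. Its arrays in subclones 6 (11.43 and 11.38) and 19 (10.21, 10.18 and 10.18) came next at either end, and the other 4 subclones lay between 10.67 and 10.99. Nsdhl, which acts on the same methyl groups, was also lowest in subclone 28 (8.56 to 8.58, against 8.60 to 9.86 on the other arrays). Hsd17b7, the reductase that completes that step, had another low end. It read 7.72, 7.47 and 7.62 in subclone 23, against a lowest value of 8.10, a median of 8.53 and a highest of 9.22 on the other 20 arrays, a difference of -1.04 ± 0.057 (SE, limma adjusted p = 6.3e-11).

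The last steps had smaller ranges. Sc5d, the sterol desaturase, was highest in subclone 3 (11.12) and lowest in subclone 23 (10.23), and it was the cholesterol gene with the largest rise in subclone 2 (0.42 ± 0.034, SE, limma adjusted p = 1.28e-08). Dhcr7, the final reductase, was highest in subclone 3 (8.36) and lowest in subclone 19 (7.54). Ebp was the exception of the arm, with its highest mean in subclone 19 (7.93) and its lowest in subclone 28 (7.18). Counted over the 17 genes, the highest mean was in subclone 3 for 12, and the lowest was in subclone 28 for 7, in subclone 19 for 5, in subclone 23 for 4 and in subclone 18 for 1.

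All arrays of subclone 3 lay above every other array for 8 of the 17 cholesterol genes (Pmvk, Idi1, Fdps, Fdft1, Cyp51, Tm7sf2, Msmo1 and Nsdhl), against 3.31% of all genes. Subclone 6 stood above all others for Hsd17b7 (1.37% of all genes). At the low end, subclone 19 was below all others for Hmgcs1, Fdft1 and Tm7sf2 (3.22%), subclone 28 for Cyp51, Msmo1 and Nsdhl (3.58%), and subclone 23 for Sqle and Hsd17b7 (2.9%). None of the cholesterol genes stood apart in this way in subclones 2 and 24.

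The similar levels of the arm in subclones 3 and 6 and in subclones 19 and 28 were set against each other directly. Between subclones 3 and 6, 3 cholesterol genes (Pmvk, Fdft1 and Msmo1) were higher in subclone 3 and 0 lower, against 19% of all genes that differed. Between subclones 19 and 28, 4 were higher (Mvk, Pmvk, Cyp51 and Ebp) and 5 lower (Hmgcs1, Fdft1, Tm7sf2, Hsd17b7 and Sc5d) in subclone 19, against 40.3% of all genes. The median difference between subclones 19 and 28 was 0.01 over the arm, although 9 of its 17 genes differed. Between subclones 3 and 28, 16 cholesterol genes were higher in subclone 3, against 35.9% of all genes that differed in either direction.

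**Figure D2:**
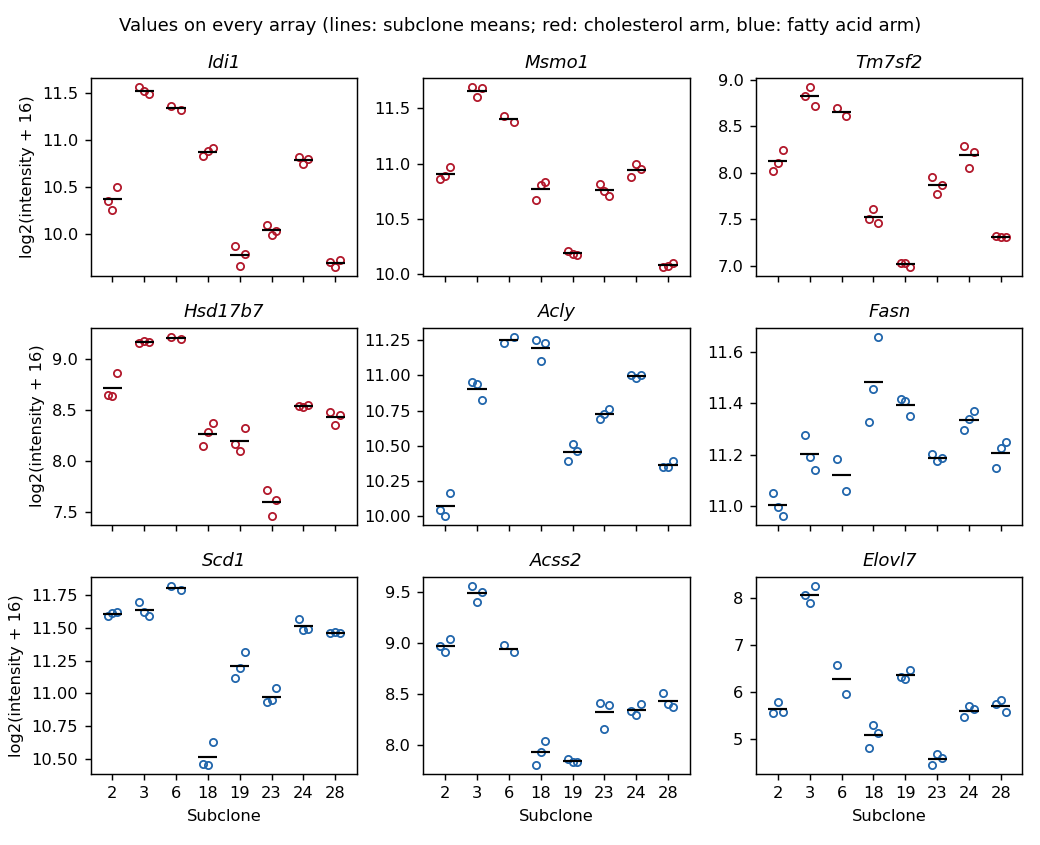
Log2(intensity + 16) of 4 cholesterol genes (red) and 5 fatty acid genes (blue) on each of the 23 arrays (points), with subclone means (lines); the vertical scale differs between panels. Idi1, Msmo1 and Tm7sf2 share high values in subclones 3 and 6 and low values in subclones 19 and 28, Hsd17b7 is lowest in subclone 23, Acly and Fasn are lowest in subclone 2, and Scd1 is lowest in subclone 18.

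Promoter sequences are shown for 4 cholesterol genes with wide ranges and for Fasn, whose range was small. They come from RefSeq on GRCm38.p6, run 5′ to 3′ from 250 bases before to 50 bases after the gene's start, and were found for 24 of the 31 genes. Capitals mark the sterol regulatory element TCACNCCAC and the CCAAT box, read on either strand (a CCAAT box on the opposite strand appears as ATTGG).
Hmgcs1 (chr13:119690101-119690400, + strand): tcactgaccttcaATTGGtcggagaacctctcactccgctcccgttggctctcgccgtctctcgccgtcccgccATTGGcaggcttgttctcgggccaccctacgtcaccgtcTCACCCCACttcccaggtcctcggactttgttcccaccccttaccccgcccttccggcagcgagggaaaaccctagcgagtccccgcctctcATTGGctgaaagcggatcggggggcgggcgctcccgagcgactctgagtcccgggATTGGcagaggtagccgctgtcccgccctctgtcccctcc
Idi1 (chr13:8885356-8885655, + strand): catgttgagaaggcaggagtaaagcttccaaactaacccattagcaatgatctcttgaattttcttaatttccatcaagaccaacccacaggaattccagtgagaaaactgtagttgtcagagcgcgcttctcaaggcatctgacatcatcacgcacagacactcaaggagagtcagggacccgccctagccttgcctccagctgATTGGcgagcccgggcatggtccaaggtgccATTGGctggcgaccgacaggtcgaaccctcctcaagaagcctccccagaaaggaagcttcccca
Cyp51 (chr5:4104648-4104947, - strand): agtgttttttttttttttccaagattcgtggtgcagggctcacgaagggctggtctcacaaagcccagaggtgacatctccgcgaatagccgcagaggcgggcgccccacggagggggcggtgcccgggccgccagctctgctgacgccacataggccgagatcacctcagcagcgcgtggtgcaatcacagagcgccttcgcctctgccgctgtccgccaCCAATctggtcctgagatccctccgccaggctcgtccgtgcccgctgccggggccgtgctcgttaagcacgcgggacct
Msmo1 (chr8:64733529-64733828, - strand): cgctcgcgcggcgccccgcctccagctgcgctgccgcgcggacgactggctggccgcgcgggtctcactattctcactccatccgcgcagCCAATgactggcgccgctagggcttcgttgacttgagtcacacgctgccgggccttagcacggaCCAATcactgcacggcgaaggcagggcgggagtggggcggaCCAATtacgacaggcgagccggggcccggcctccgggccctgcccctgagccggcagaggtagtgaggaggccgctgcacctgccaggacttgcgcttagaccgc
Fasn (chr11:120824498-120824797, - strand): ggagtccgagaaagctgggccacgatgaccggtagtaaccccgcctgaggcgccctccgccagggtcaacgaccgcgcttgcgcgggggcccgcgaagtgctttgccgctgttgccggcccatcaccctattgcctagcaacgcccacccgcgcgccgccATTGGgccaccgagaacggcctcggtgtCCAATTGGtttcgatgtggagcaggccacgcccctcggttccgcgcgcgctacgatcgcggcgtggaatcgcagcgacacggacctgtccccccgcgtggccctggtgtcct

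In these windows CCAAT was found in at least 1 promoter of 14 of 14 cholesterol genes with a sequence and in 14 of their 17 promoters (82.4%), against 37.4% of 32851 mouse promoters of the same length and 37.8% of those of genes with a mean intensity of at least 100 here. It was found in 3 of 7 fatty acid promoters (42.9%). Hmgcs1 held 4, of which 3 lay before the start site, Msmo1 held 3, Fasn held 3, Idi1 held 2 and Cyp51 held 1. The letters TCACNCCAC were found only in Hmgcs1, as TCACCCCAC at position -137 from the start, and in 1.24% of all promoters. CACGTG, an E-box, was found in Hsd17b7, Sc5d, Dhcr7 and Insig1, and in 7.15% of all promoters. GGGCGG, a GC box, was found in 82.4% of cholesterol promoters and 57.1% of fatty acid promoters, against 65.2% of the promoters of expressed genes. A match describes the letters in this window and is not a measured binding site. Fasn, with as many CCAAT boxes as Msmo1, ranged over 1.39-fold between subclones, and Msmo1 over 2.98-fold.

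The fatty acid arm was higher in the same pair of subclones but did not move as a block elsewhere. In subclone 3, 7 of 10 genes were higher and 0 lower, and in subclone 6 also 7 and 0. Subclone 2 had 2 higher and 5 lower, subclone 18 had 3 higher and 4 lower, subclone 19 had 2 higher and 5 lower, subclone 23 had 1 higher and 4 lower, subclone 24 had 3 higher and 2 lower, and subclone 28 had 2 higher and 3 lower, each to be read against the shares of all genes given above. With a difference of at least 0.5 in addition, 2 were higher in subclone 3 (Acss2 and Elovl7) and 3 in subclone 6 (Acly, Scd1 and Fads2), while in subclone 18 there were 1 higher (Acly) and 3 lower (Acss2, Elovl7 and Scd1), against 4.18% and 6.02% of all genes. At the same cut, subclone 2 had 1 higher (Acss2) and 1 lower (Acly), against 375 and 659 of all 18193 genes. Subclone 19 had 1 higher and 2 lower, against 788 and 573 of all genes. Subclones 23 and 28 had 1 lower each (3.34% and 2.58% of all genes), and subclone 24 had none. Without that minimum difference, the fatty acid arm held genes called in both directions in 6 of the 8 subclones. The cholesterol arm did so in subclones 2, 18, 19 and 24. With the shares of all genes and of expressed genes called each way, a mix is not particular to the arm. In subclone 28, for example, 20% of the fatty acid arm were higher and 30% lower, against 19.2% and 18.2% of all genes.

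The enzymes that supply acetyl-CoA went different ways. Acly, which makes it from citrate, read 10.05, 10.01 and 10.17 in subclone 2, against a lowest value of 10.35, a median of 10.88 and a highest of 11.28 on the other 20 arrays. The groups did not overlap, as for 3.21% of all genes in that direction, and the difference was -0.77 ± 0.039 (SE, limma adjusted p = 2.67e-11). Acly was highest in subclones 6 (11.25) and 18 (11.19), which did not differ from one another (adjusted p = 0.472, limma).

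Acss2, which makes acetyl-CoA from acetate, was high where Acly was lowest. It read 8.97, 8.91 and 9.04 in subclone 2, against a lowest value of 7.80, a median of 8.39 and a highest of 9.57 elsewhere, a difference of 0.50 ± 0.053 (SE, limma adjusted p = 4.08e-07). It peaked in subclone 3, with 9.57, 9.41 and 9.50, above all other arrays. It was lowest in subclones 19 (7.86, 7.83 and 7.83) and 18 (7.80, 7.93 and 8.04), whose arrays overlapped. Its range was 3.13-fold, and both brighter probe sets of the gene were highest in subclone 3 and lowest in subclone 19.

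Acaca, the carboxylase that makes malonyl-CoA, and Fasn, the fatty acid synthase, shared their extremes. Fasn read 11.05, 11.00 and 10.96 in subclone 2, against a lowest value of 11.06, a median of 11.26 and a highest of 11.66 on the other arrays. It read 11.33, 11.46 and 11.66 in subclone 18, where the 3 arrays were spread over more than those of any other subclone. Fasn was -0.27 ± 0.049 apart in subclone 2 (SE, limma adjusted p = 0.000191) and 0.27 ± 0.049 higher in subclone 18 (adjusted p = 0.000117). Acaca had means of 8.08 in subclone 2 and 8.64 in subclone 18, its lowest and highest. For Fasn, Acaca, Elovl6 and Fads2 none of the 7 neighbouring gaps in the order of subclone means passed an adjusted p under 0.05. Their order is thus not resolved between neighbours, although some subclones further apart differed.

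Of the elongases, Elovl6, which lengthens palmitate, ranged over 1.40-fold and was highest in subclone 3 and lowest in subclone 2. Elovl7, an elongase of long-chain acyl-CoA, had the widest range of all members. It read 8.07, 7.90 and 8.27 in subclone 3, against a lowest value of 4.44, a median of 5.61 and a highest of 6.57 on the other 20 arrays. The groups were well apart, and the difference was 2.48 ± 0.11 (SE, limma adjusted p = 5.12e-12). In subclone 23 it read 4.44, 4.68 and 4.60, close to the floor of the scale at an intensity of 0, so the fold between subclones 3 and 23 (11.4) has an uncertain lower end. All 6 probe sets of Elovl7 were highest in subclone 3. Elovl7 also set the mean of the arm in subclone 3, which was 0.44 ± 0.024 above the mean over subclones with it and 0.25 ± 0.035 with the other 9 genes (SD over 3 arrays).

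Of the 4 desaturases, Scd1 and Scd2 were lower in subclone 18, and Fads1 and Fads2 were not called there. Scd1, the stearoyl-CoA desaturase, read 10.46, 10.46 and 10.63 in subclone 18, against a lowest value of 10.93, a median of 11.48 and a highest of 11.82 elsewhere, and differed by -0.94 ± 0.041 (SE, limma adjusted p = 1.09e-12). Its close relative Scd2 read 12.55, 12.57 and 12.69 there, against 12.92 to 13.24 elsewhere with a median of 13.07, a difference of -0.47 ± 0.031 (adjusted p = 4.79e-10). Both lay below every other array in subclone 18, and all 5 probe sets of these genes were lowest there. Probes of such close relatives may read each other's RNA in part. Fads1, a desaturase of polyunsaturated fatty acids, was lowest in subclone 19 (8.91, 8.99 and 8.87, below the 9.12 to 9.75 of the others), and highest in subclone 23 (9.68).

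Fads2, its neighbour in the same pathway, was highest in subclone 6 (8.98) and lowest in subclone 28 (8.01), but its other 2 probe sets were highest in subclone 18 and lowest in subclone 19. Subclones 2 and 18 split the fatty acid arm in both directions. Compared with subclone 18, subclone 2 was higher for 4 genes (Acss2, Elovl7, Scd1 and Scd2) and lower for 5 (Acly, Acaca, Fasn, Elovl6 and Fads2), against 43.9% of all genes that differed. The largest of these differences were -1.12 ± 0.051 for Acly, 1.09 ± 0.054 for Scd1 and 1.05 ± 0.070 for Acss2 (SE, limma).

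The 4 regulators and carriers did not follow the enzymes alike. Stard4, a cytosolic sterol carrier, was highest in subclones 6 (10.28) and 3 (10.27), and its other 6 subclone means lay between 9.41 and 9.72. Insig1, which retains Scap and is itself an SREBP target, read 11.38 and 11.29 in subclone 6, against a lowest value of 10.46, a median of 10.68 and a highest of 11.20 on the other 21 arrays. It was lowest in subclone 18 (10.46, 10.51 and 10.54), and it was higher in subclone 2 by 0.32 ± 0.037 (SE, limma adjusted p = 1.35e-06). Of the 17 cholesterol genes, 4 were higher and 7 lower in subclone 2, near the shares of expressed genes (24.7% and 33.2%). Srebf2, the SREBP gene tied most closely to cholesterol synthesis, ranged from 8.79 in subclone 18 to 9.37 in subclone 6.

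Srebf1, the SREBP gene tied more to fatty acid synthesis, read 9.85, 9.88 and 9.87 in subclone 18, below the 10.02 to 10.48 of the other 20 arrays, a difference of -0.41 ± 0.037 (SE, limma adjusted p = 3.78e-08). Its highest means were in subclones 24 (10.46) and 19 (10.43), and it differed in subclone 3 by -0.16 ± 0.037 (adjusted p = 0.00206). Subclone 18 was the one in which all 4 of these regulators and carriers were lower, and the enzymes went both ways there. Of the 17 cholesterol genes, 8 were higher and 4 lower. Of the 10 fatty acid genes, 3 were higher (Acly, Acaca and Fasn) and 4 lower (Acss2, Elovl7, Scd1 and Scd2). Of all genes, 21.5% were higher and 21.6% lower in subclone 18, and of expressed genes 34.1% and 34.0%. A mix of both directions is thus not particular to the enzymes. In subclone 6 all 4 regulators and carriers were higher, against 13.8% of all genes and 21.0% of expressed genes. The arrays read mRNA, and cleavage of SREBP proteins was not measured.

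**Figure D3:**
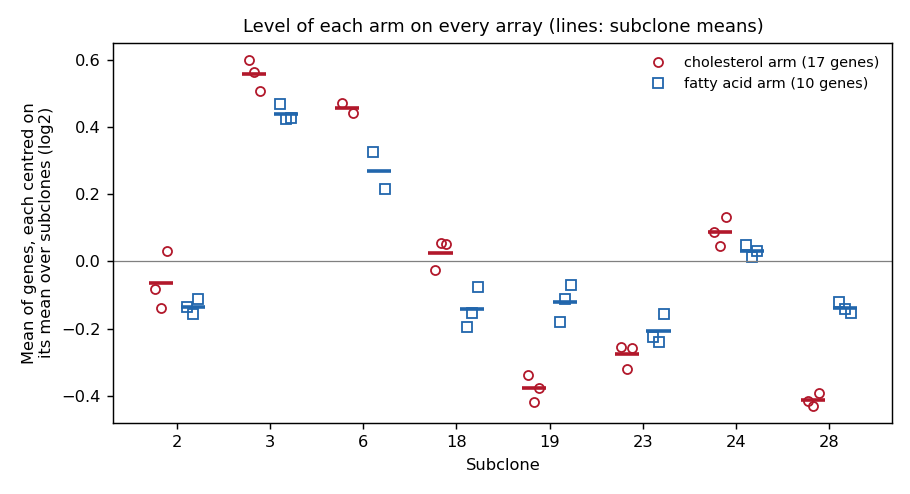
Mean of the 17 cholesterol genes (circles) and of the 10 fatty acid genes (squares) on each array, each gene centred on its mean over the 8 subclones (log2 units); lines are subclone means. The cholesterol arm spans 0.56 in subclone 3 to -0.41 in subclone 28, and the arms lie furthest apart in subclones 19 and 28, where the fatty acid arm is at -0.12 and -0.14.

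The arms were contrasted by the median difference of the cholesterol genes minus that of the fatty acid genes in each subclone, as a description. It was 0.19 in subclone 2 (-0.08 for cholesterol, -0.28 for fatty acid), 0.41 in subclone 3 (0.64 and 0.23), 0.21 in subclone 6 (0.55 and 0.34), and 0.09 in subclone 18 (0.09 and -0.0044, the second of which changed sign with the scaling). It was -0.40 in subclone 19 (-0.46 and -0.06), -0.22 in subclone 23 (-0.29 and -0.08), 0.04 in subclone 24 (0.13 and 0.09) and -0.30 in subclone 28 (-0.43 and -0.13). By its median, the cholesterol arm deviated further than the fatty acid arm in subclones 3, 6, 19, 23 and 28, and the fatty acid arm further in subclone 2.

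Some of these medians rest on single arrays or probe sets. Without replicate 1 of subclone 6, the fatty acid median there was 0.16 and the difference of the arms 0.36. In subclone 2, the difference of the arms was 0.09 with the mean of all probe sets and 0.03 with the second-brightest probe set of each gene. Taken as means over the genes, the arms lay closer together in several subclones. The mean of the cholesterol genes minus that of the fatty acid genes was 0.07 in subclone 2 (SD 0.063 over 3 arrays). It was -0.07 in subclone 23 (SD 0.037) and 0.06 in subclone 24 (SD 0.038). It was 0.12 in subclone 3, 0.19 in subclone 6, 0.17 in subclone 18, -0.26 in subclone 19 and -0.27 in subclone 28.

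Likeness to the cholesterol arm was measured as Pearson's r between a gene and the mean of the other cholesterol genes over the 8 subclone means, which share arrays and a common scaling. It had a median of 0.88 over the cholesterol genes, from 0.39 for Ebp to 0.99 for Cyp51, and 10 of 17 were above 0.8. Over the fatty acid genes the median was 0.57, from -0.19 for Fasn to 0.84 for Fads2, and 1 of 10 was above 0.8. Stard4 had r = 0.92, Insig1 0.70, Srebf2 0.60 and Srebf1 -0.12. Leaving out the 2 subclones farthest from the median left Idi1 (0.97), Cyp51 (0.98) and Nsdhl (0.96) high. The relation rested on those subclones for Pmvk (-0.20), Lss (-0.06), Hsd17b7 (0.30), Srebf2 (0.06), Acss2 (0.16), Scd1 (-0.12), Scd2 (-0.42), Elovl6 (-0.14) and Elovl7 (-0.27), among others that weakened less.

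Whole chromosomes also differed in level between subclones, and some genes of the list lie on such chromosomes. On chromosome 19, the median over the other expressed genes was -0.32 in subclone 18, where Scd1 was at -0.94, Scd2 at -0.47 and Tm7sf2 at -0.47, but Fads1 at -0.06 and Fads2 at 0.33. On chromosome 1, the median in subclone 23 was -0.42, beside -1.04 for Hsd17b7. On chromosome 8, the median in subclone 28 was -0.30, beside -0.86 for Msmo1 and -0.34 for Mvd. On chromosome 10, the median in subclone 24 was -0.28, beside -0.45 for Lss, the only cholesterol gene that was lower there. Chromosome 13, which carries Hmgcs1, Idi1 and Elovl7, was at -0.18 in subclone 28 and 0.14 in subclone 3, beside -0.98 and 1.12 for Idi1. Other genes did not share the direction of their chromosome. In subclone 19, chromosome 1 was at 0.31, beside -0.36 for Hsd17b7, and chromosome 10 at 0.25, beside -0.12 for Lss. Chromosome 3 was at 0.26 there, beside -0.48 for Fdps and 0.07 for Pmvk. In subclone 23, chromosome 8 was at 0.28, beside -0.09 for Msmo1 and 0.03 for Mvd. A relation was not tested.

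With the median of its own chromosome subtracted from each gene, an alternative chosen after these shifts were seen, the difference of the arms in subclone 18 was -0.14, against 0.09 as fitted, with a fatty acid median of 0.18. In subclone 23 it was -0.11, with a fatty acid median of -0.22. In subclone 2, the cholesterol median was 0.03 and the fatty acid median -0.16, and in subclone 24 the fatty acid median was 0.02. The cholesterol median stayed above 0 in subclones 3 and 6 and below 0 in subclones 19, 23 and 28, and it was -0.65 in subclone 19. Copy number was not measured.

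**Figure D4:**
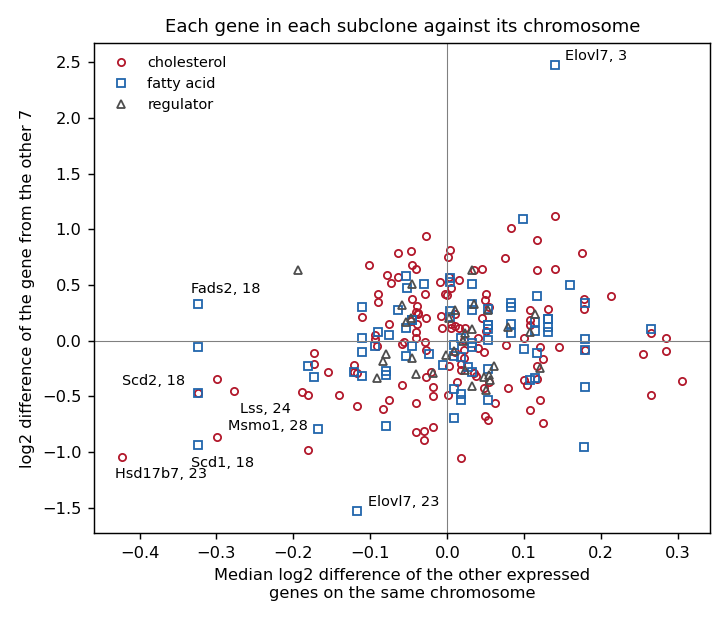
Log2 difference of each of the 31 genes in each of the 8 subclones from the other 7 (vertical axis) against the median difference of the other expressed genes on its chromosome in that subclone (horizontal axis); labels name a few genes with the subclone. Scd1 and Scd2 in subclone 18, Hsd17b7 in subclone 23 and Msmo1 in subclone 28 lie at the left, on chromosomes with medians of -0.32, -0.42 and -0.30, and below those medians, while Elovl7 in subclone 3 lies at 2.48 on a chromosome at 0.14.

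Neighbouring genes of the pathways were taken from lists chosen with earlier results of these data known. Of 15 listed genes of sterol synthesis, uptake and SREBP processing, 10 were measured and 10 passed the F-test, against 61.8% of all genes. The 10 were Ggps1, Lbr, Insig2, Scap, Mbtps1, Mbtps2, Tmem97, Npc1, Npc2 and Acat1. The counts and medians that follow describe these genes alone. In subclone 3, where nearly all cholesterol genes were higher, 4 of these 10 were higher and 3 lower with a median difference of -0.0037, against 19.4% and 18.6% of all genes. In subclone 19, 6 were higher and 1 lower with a median of 0.21, against 24.2% and 17.7% of all genes. In subclone 28, 3 were higher and 6 lower with a median of -0.11, against 19.2% and 18.2% of all genes.

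Scap, the escort of SREBP, was among them and stood highest in subclone 18 (11.36 to 11.43, mean 11.40) and lowest in subclones 3 (9.93 to 10.13, mean 10.03) and 6 (9.96 to 10.15, mean 10.05), a range of 2.58-fold. Scap was at its lowest in the subclones where the cholesterol enzymes were at their highest. It was higher in subclones 19 (0.41, limma adjusted p = 9.63e-07) and 23 (0.44, adjusted p = 4.12e-07). The cholesterol median was -0.46 and -0.29 in these subclones. Scap and the cholesterol enzymes did not run opposite throughout. Scap was also lower in subclone 28 (-0.27, limma adjusted p = 0.00013), where the cholesterol median was -0.43. It was lower in subclone 2 (-0.45) as well, where that median was -0.08. In subclone 18, the peak of Scap, the median was 0.09. A relation was not tested. Tmem97, a sterol-regulated membrane protein, had its highest mean in subclone 3 (8.51) and its lowest in subclone 23 (7.38). Npc2, which binds cholesterol in lysosomes, was highest in subclone 2 (12.58) and lowest in subclone 19 (11.54).

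Of 27 further genes of fatty acid supply, elongation and use, 25 were measured and 20 passed the F-test (61.8% of all genes). Acsl3, an acyl-CoA synthetase, followed subclones 6 (10.79) and 3 (10.65) at the top and was lowest in subclone 23 (9.20), on the chromosome 1 described above. Acsl4, which favours arachidonate, peaked in subclone 28 (10.64), as did Lpin2, a phosphatidate phosphatase (11.11). Subclone 18 was the low end for both, with 9.42 for Acsl4 and 10.03 for Lpin2. The other genes past the F-test ranged over less than 1 log2 unit.

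Of 7 listed targets and receptors of the sterol efflux programme, 6 were measured and 3 passed the F-test, against 61.8% of all genes. Abca1, which exports cholesterol to lipoprotein acceptors, read 4.71 to 4.93 in subclone 18, against 7.71 to 8.96 on the other arrays. Its mean intensity was 12.1 in subclone 18, near the floor, and 454 in subclone 2, the highest. Mylip, which degrades lipoprotein receptors, was highest in subclone 2 (10.63) and lowest in subclone 3 (9.51).

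The counts of higher and lower genes use the spread between arrays of one subclone and not the spread between subclones. When the arrays of all other subclones were instead pooled as 1 group, 8 cholesterol genes were called in subclone 3 (5.99% of all genes), 5 in subclone 28 (7.35%), 3 in subclone 19 (10.8%) and 1 in subclone 23 (6.31%). Under that setting limma called 0 in subclone 6 (0.077% of all genes), with 8 at an unadjusted p under 0.05. It also called 0 in subclones 2 (4.25%), 18 (15.8%) and 24 (2.59%), with 4, 2 and 0 at an unadjusted p under 0.05.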

How the data were processed

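Total RNA of 8 LLC subclones was measured on 23 Affymetrix arrays after 24 h without serum, per the labels. The authors deposited 1 linear intensity per probe set and array. How these intensity values were computed and scaled, and on which genome build, is not given in the sources used here. The deposited scaling was kept, and log2(intensity + 16) was computed. Of 45101 probe sets, 64 controls, 932 with several symbols and 9160 not in the annotation used were left out. Entrez identifiers were used to update symbols from a RefSeq table of GRCm38.p6. Each gene was read by its probe set with the highest mean, with no filter on low values, which gave 18193 genes.

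A linear model of the 8 subclone means without covariates was run in limma 3.58.1 (R 4.3.3), with eBayes after lmFit. It left 15 residual degrees of freedom and a median residual SD of 0.113. It gave a moderated F-test, each subclone against the others with equal weights, and all 28 pairs. P-values were adjusted by Benjamini-Hochberg over all 18193 genes within each comparison and called under 0.05, or with a log2 difference of at least 0.5 in addition. They measure the spread between arrays of one subclone, and the number of arrays limits the precision. The script was tested on simulated data. The members and the other lists were chosen with earlier results of these data known, so medians and counts over them are descriptions. The text names all members and, of the other lists, genes that passed the F-test and ranged over 1 log2 unit or more. Some genes of these lists were not analysed here. Same-numbered replicates of different subclones did not deviate together (mean correlation -0.0020, above 0.1 in 21 of 77 pairs), so arrays were not paired. Motifs were searched on both strands of RefSeq promoters of GRCm38.p6. Alternatives changed the pseudocount, scaling, filter, probe set, weighting, replicate block and arrays left out.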

Additional observations from a re-analysis of the deposited data

How the results depend on the processing

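The count of genes past the F-test was 30 under every leave-one-out setting and with the replicate number as a block (replicate block: 30). The block changed no call of an arm by over 1.5 times, with 16 and 15 cholesterol genes called in subclones 3 and 6. Apart from the leave-one-out settings, 429 values stayed within the spread between arrays (or, for counts, within 1.5 times), 44 moved further and 1 is the sign change given next. The difference of the arms (cholesterol minus fatty acid median) in subclone 18 changed sign, to -0.14, with the chromosome median subtracted. Under that setting the sign also changed for the cholesterol median in subclone 2 and the fatty acid median in subclone 18, both near 0 as fitted. The fatty acid median in subclone 18 also came out above 0 with quantile normalization (0.015), centring of the arrays (0.0025), the second-brightest probe set (0.038) and pooling of the other arrays (0.0033), and the difference of the arms in subclone 24 was -0.024 with the second-brightest probe set. With that subtraction, chosen after seeing the data, the cholesterol median was 0.028 in subclone 2 and -0.65 in subclone 19. The fatty acid median was -0.16 in subclone 2, 0.28 in subclone 6, 0.18 in subclone 18, -0.16 in subclone 19, -0.22 in subclone 23 and 0.017 in subclone 24. The difference of the arms was -0.49 in subclone 19 and -0.11 in subclone 23. With a pseudocount of 64, the fatty acid median was 0.23 in subclone 6 and the cholesterol median -0.40 in subclone 19, and with each array centred on its median, the fatty acid median was -0.22 in subclone 2.

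With the mean of all probe sets, the cholesterol median was 0.58 in subclone 3, 0.44 in subclone 6 and -0.36 in subclone 19, the fatty acid median -0.18 in subclone 2 and 0.25 in subclone 6, and the difference of the arms 0.088 in subclone 2 and -0.29 in subclone 19. With the second-brightest probe set, the fatty acid median was -0.12 in subclone 2, 0.29 in subclone 3 and -0.17 in subclone 23, the cholesterol median 0.049 in subclone 24, and the difference of the arms 0.026, 0.31, -0.31 and -0.14 in subclones 2, 3, 19 and 23. The causes were not tested.

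With all other arrays pooled as 1 group, limma called 0, 8, 0, 0, 3, 1, 0 and 5 cholesterol genes and 2, 3, 0, 4, 1, 0, 0 and 0 fatty acid genes in subclones 2, 3, 6, 18, 19, 23, 24 and 28. At an unadjusted p under 0.05 the counts were 4, 14, 8, 2, 9, 4, 0 and 7 cholesterol genes and 4, 3, 2, 6, 3, 3, 0 and 1 fatty acid genes. Of all genes, 4.25%, 5.99%, 0.077%, 15.8%, 10.8%, 6.31%, 2.59% and 7.35% were called. This setting counts differences among the other subclones as spread.

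Leaving out each array in turn, the fatty acid median ran from 0.16 to 0.36 in subclone 6 and from -0.065 to 0.037 in subclone 18. The difference of the arms ran from 0.20 to 0.36 in subclone 6 and from -0.49 to -0.34 in subclone 19. In subclone 6, the ends of 0.16 and 0.36 came from leaving out replicate 1, which leaves 1 array that is assumed to vary like those of the other subclones. Elovl7 and Abca1 approach the floor of the scale, so their folds understate or cannot bound the change.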
